A study of Danio rerio with 15 samples.

Results

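The extracellular matrix genes measured in these zebrafish brains were 50 genes, covered by 60 probe sets, of 8793 named genes and 15502 tested probe sets on the array. A gene was taken as a member when its symbol named a collagen or laminin chain, fibronectin, Sparc, a fibrillin or fibulin, a nidogen, tenascin C or R, a lectican (neurocan, brevican, versican, aggrecan), decorin, biglycan or lumican, a metalloproteinase, Adamts or Timp, or a lysyl oxidase. The rule itself used symbols only, but it was chosen with earlier results of these data known. The brightest probe set stood for each of the 9 genes with more than 1. A further 2 probe sets that matched by name carried several symbols and are not named here. By role there were 18 collagen chains outside basement membranes (6 fibrillar, 12 other), 11 basement membrane genes and 4 lecticans and tenascins. There were also 4 matricellular glycoproteins, 2 small leucine-rich proteoglycans, 2 lysyl oxidases, 7 metalloproteinases and 2 Timps. Matricellular is used here as a broad label for sparc, fn1a, fn1b and fbln1, and so takes in fibronectins and a fibulin.

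The extracellular matrix is the mesh of secreted proteins between cells. In most organs it is built on fibrils of type I collagen, but brain tissue itself holds few such fibrils: its matrix is mainly hyaluronan, bound by lecticans and cross-linked by tenascin R, and is densest in the perineuronal nets around some neurons. Fibrillar collagens belong to the meninges, vessel walls, skull and cartilage, while laminins, nidogen and collagens XV and XVIII make up or border basement membranes, including those of brain vessels.

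RNA came from whole brains of zebrafish of the strain Transgenic Mosaic 1, sexually mature and 1 year old, with 1 fish on each Affymetrix array. For 14 days their food held either 1.4 ppm selenium (control) or 5.6 ppm after sodium selenite was added (selenium). Of the control fish 3 were female and 4 male, and of the selenium fish 4 were female and 4 male. An equal sex ratio was planned, but the values used here hold only 3 control females. The labels do not say what the strain's transgene is or which cells carry it.

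All values are log2 expression levels as deposited, and a difference of 1 is a doubling of signal. The medians of the 15 arrays lay between 7.24 and 7.35. Precision is set by the 3 or 4 arrays of a group and by an estimate of the spread that all 15 arrays share. Genes that mark neurons and glia had high signal in every fish: the mean of 9 neuronal genes (among them elavl3, snap25a and gad1b) was 12.031 ± 0.051 (SD, n = 3) in control females, 11.998 ± 0.021 (n = 4) in selenium females, 12.082 ± 0.019 (n = 4) in control males and 12.069 ± 0.024 (n = 4) in selenium males. Genes that mark other tissues, read from marker lists, also varied between the fish. Whether their signal came from tissue outside the brain was not tested. The mean of 24 skeletal muscle genes lay 2.89 above its 15-fish average in male selenium replicate 1 and 0.90 above it in replicate 3 of that group, against -0.81 to 0.36 in the other fish. The mean of 15 retina and lens genes was high in 4 fish. These were female control replicate 2 (1.07), female selenium replicate 2 (0.78) and male selenium replicates 2 and 4 (2.64 and 2.07). Not every gene of that list rose in them. In that order gngt1 was at 10.99, 10.33, 11.10 and 11.29, but the opsin gene opn1sw2 at 5.12, 5.41, 10.10 and 7.94. The lens genes cryaa (3.58 to 3.87) and crybb1 (4.27 to 5.09) varied little over all fish. The mean of 15 epithelial genes was high in male selenium replicate 1 (1.24), female selenium replicate 3 (0.82) and male control replicate 2 (0.72). In bulk tissue, fewer cells of a type and less RNA per cell cannot be told apart.

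Across the 15 fish, matrix genes varied more than most genes. The SD of a member over all fish had a median of 0.27, against 0.18 over the 8793 named genes, and 8 of 50 members (16%) had an SD over 0.5, against 394 of all named genes (4.48%). The 8 were all collagens except neurocan: col10a1b (SD 2.05), col10a1a (1.57), col1a2 (1.12), col1a1a (1.11), col6a3 (0.89), col2a1a (0.79), ncana (0.79) and col9a1b (0.62). At the other end, the aggrecan gene acanb, the stromelysin-type protease gene mmp11b, timp2a and col11a2 had SDs of 0.11, 0.11, 0.10 and 0.07. There were 12 members below 5.14, the 25th percentile of the level of all tested probe sets, and they include acanb, lamc1, nid1a and col9a1b.

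**Figure D1:**
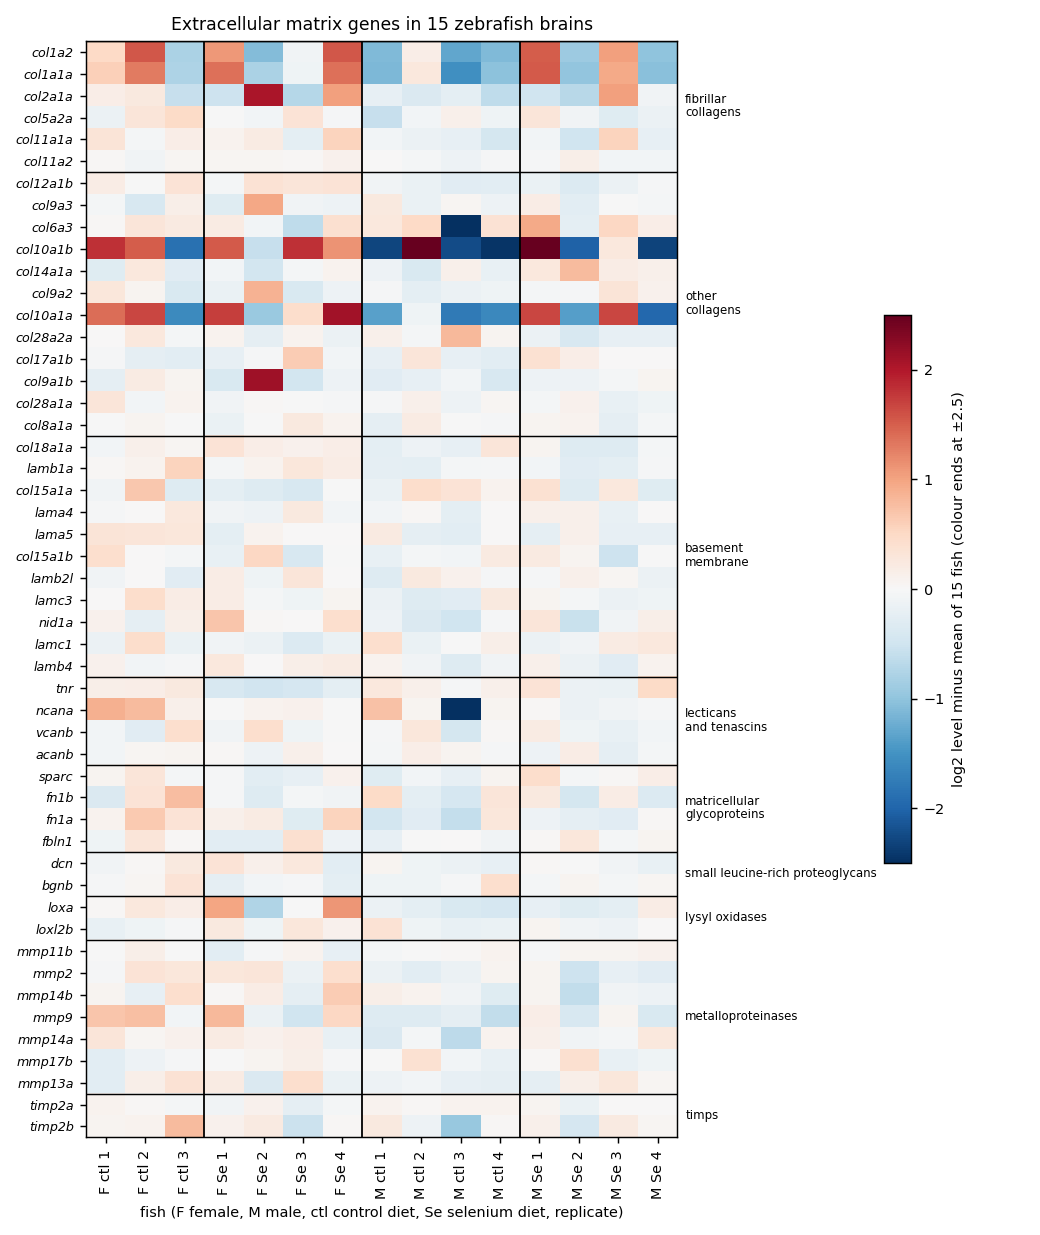
Level of each of the 50 matrix genes (rows, grouped by role) in each of the 15 fish (columns, grouped by sex and diet) as the log2 difference from the gene's mean over all fish, with the colour ending at ±2.5. The rows of col1a2, col1a1a, col10a1a and col10a1b are red or near their mean in the same fish and blue in the others, while most rows are pale; col9a1b and col2a1a are red in female selenium replicate 2, and ncana and col6a3 are dark blue in male control replicate 3.

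The type I collagen genes, whose products form the main fibrils of bone, skin, tendon and meninges, separated individual fish within every group. The level of col1a2, the alpha-2 chain, was 9.44, 10.51 and 8.15 in control females, 10.03, 7.86, 8.86 and 10.50 in selenium females, 7.84, 9.11, 7.66 and 7.84 in control males, and 10.46, 8.03, 9.97 and 7.94 in selenium males. That of col1a1a, the alpha-1 chain, was 9.46, 10.17 and 8.11, then 10.25, 8.08, 8.76 and 10.25, then 7.75, 9.13, 7.34 and 7.85, and then 10.40, 7.88, 9.82 and 7.82 in the same order. Both genes were high in the same 8 fish: control females 1 and 2, selenium females 1, 3 and 4, control male 2 and selenium males 1 and 3. The 7 other fish lay close together in col1a2, between 7.66 and 8.15. Both col1a1a probe sets carry the suffix that the array's maker gives to probes that can match more than 1 transcript.

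Type X collagen, which in other vertebrates is a product of hypertrophic cartilage and in zebrafish is also made by bone-forming cells, followed the same fish. The level of col10a1b was 9.11, 8.79 and 5.41 in control females, 8.81, 6.70, 9.11 and 8.40 in selenium females, 4.98, 9.86, 5.04 and 4.83 in control males, and 10.41, 5.26, 7.54 and 4.97 in selenium males. That of col10a1a ranged from 4.59 in selenium male 4 to 8.65 in selenium female 4. The 8 fish with the highest col1a2 were also exactly the 8 highest in col1a1a, col10a1a and col10a1b, that is in 3 of the 49 other members (6.12%). Among the 8792 other named genes, 5 (0.0569%) shared all 8 fish: those 3 and, outside the matrix rule, runx2a, a transcription factor of bone formation, and spp1, osteopontin, a secreted phosphoprotein of bone. The level of runx2a was 7.11 to 7.67 in those fish and 5.82 to 6.68 in the others; that of spp1 ran up to 7.61, but its eighth fish, at 6.08, was close to the ninth, at 6.03. These are ranks of the same 15 arrays, given as a description. The 3 fish with the highest mean of the epithelial list, selenium male 1, selenium female 3 and control male 2, were also among the 8. Of these, selenium male 1 and control male 2 were the highest in col10a1b. Each of the 15 epithelial genes shared 4 to 7 of the 8 fish, with 7 for the keratin gene krt4 and the claudin gene cldne. Skeletal muscle genes shared 4 to 6 and neuronal genes 2 to 6, so most of these counts are not particular to epithelium. The share over all named genes is given here only for all 8 fish. The part of epithelial or muscle signal in the collagen pattern was not tested.

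**Figure D2:**
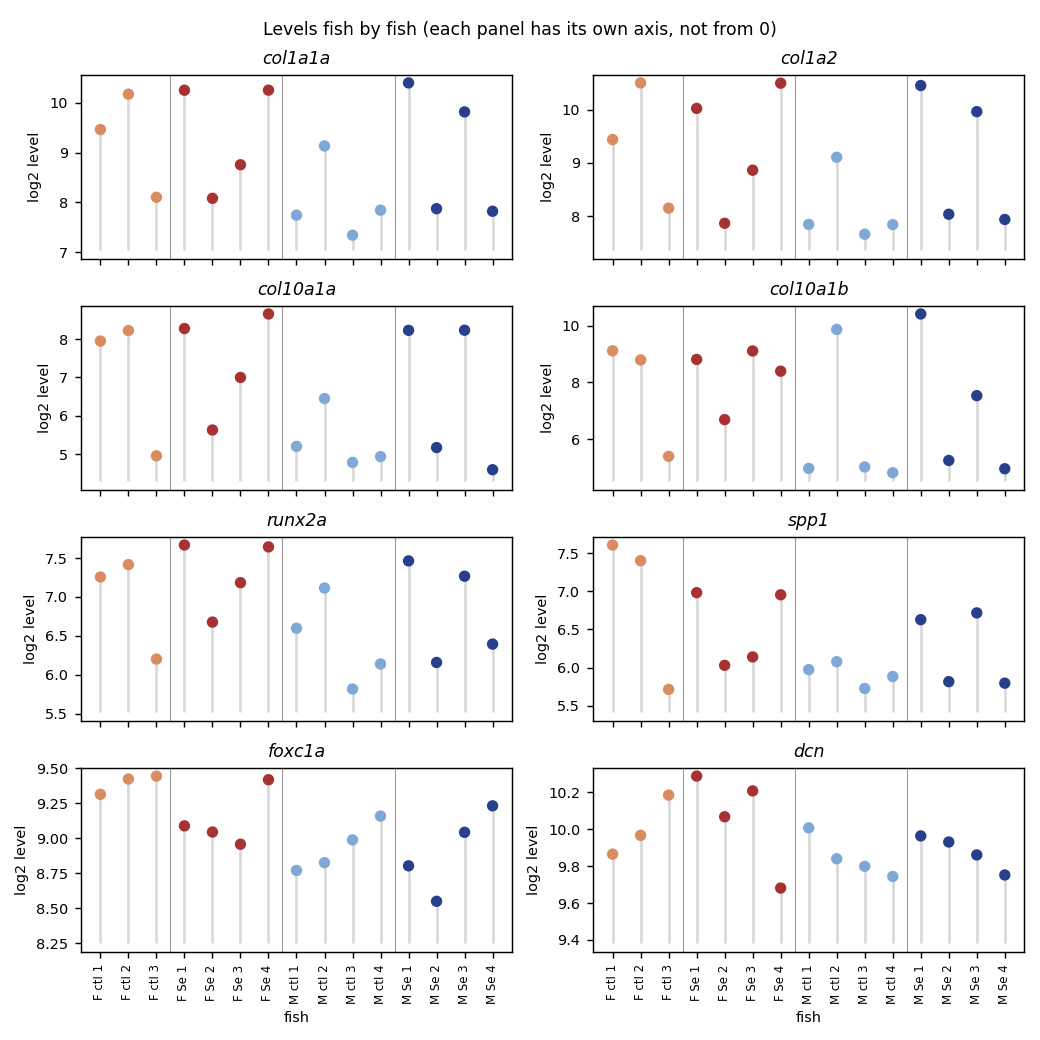
Log2 level in each of the 15 fish of 4 collagen genes, of runx2a and spp1 from the cartilage and bone list, of foxc1a from the fibroblast and meninges list, and of dcn; colours mark the 4 groups and each panel has its own axis, which does not start at 0. The same 8 fish are the highest in the upper 6 panels (for col1a2, 8.86 to 10.51 against 7.66 to 8.15), and they do not stand out in foxc1a or dcn. These panels do not stand for their lists: the other cartilage and bone genes shared 3 to 7 of the 8 fish, and pcolcea of the fibroblast list shared 7.

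The label of meningeal collagens was set beside genes that mark fibroblasts and meninges without being members, of which 14 of 23 listed were measured. Their mean deviated by -0.18 to 0.10 from its average over the fish, and that of the 9 measured cartilage and bone genes by -0.28 to 0.36. Single genes shared 3 to 7 of the 8 fish in the first list and 3 to 8 in the second. The fibroblast gene nearest to the pattern was pcolcea, which helps to process procollagen: it shared 7 of the 8 fish and ranged from 6.08 to 7.55, highest in selenium female 4. The prostaglandin synthase gene ptgdsb.1 shared 5 and was highest in selenium male 1 (11.46), control male 2 (11.39) and selenium female 3 (11.02). By contrast foxc1a, a transcription factor needed for meningeal development, shared 4, ranged from 8.55 to 9.44 and was highest in control female 3, where col1a2 was low. Since these markers do not settle a meningeal source, the group is called here the type I, V, VI and XII collagens. Its 5 genes did not move as 1 group either: with col1a2, the correlation over the 15 fish was 0.99 for col1a1a but 0.47 for col6a3 (a chain of beaded microfilaments), 0.23 for col5a2a (a chain that sets fibril width) and 0.13 for col12a1b (a chain on the surface of fibrils).

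Likeness to col1a2 was tested over fish for 5 members, with permutation of fish and adjustment over the 5 pairs. For col1a1a, Pearson's r was 0.989 and Spearman's rho 0.950 (n = 15; permutation adjusted p = 5e-05 for both, the smallest that 100000 permutations can give over 5 pairs), and r was 0.991 without the 2 fish farthest from the median of col1a2. For sparc, a collagen-binding glycoprotein, r was 0.651 and rho 0.614 (permutation adjusted p = 0.0216 for r); without those 2 fish r was 0.565 and no longer passed (permutation adjusted p = 0.103), nor did it without control female 2 alone (0.585, permutation adjusted p = 0.0651) or selenium male 1 alone (0.574, permutation adjusted p = 0.0807). For dcn, ncana and tnr, r was 0.030, 0.329 and -0.100 (permutation adjusted p = 0.914, 0.420 and 0.896). Since col1a2 was packed at a low level in 7 fish, r was also computed inside both sets of fish: for col1a1a it was 0.964 within the 8 fish of higher col1a2 and 0.783 within the 7 of lower col1a2, where it did not pass (permutation adjusted p = 0.228), and for sparc 0.809 and 0.384. With deviations from the 4 group means, r was 0.988 for col1a1a and 0.704 for sparc. Of all 49 other members, 7 had an r over 0.5 with col1a2 and none had an r below -0.5: besides col1a1a, col10a1a, col10a1b and sparc they were mmp9 (0.77), a gelatinase, loxa (0.58), which cross-links collagen, and col11a1a (0.53). The share of all named genes beyond these cuts is not given, so the count cannot be called particular to matrix genes.

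A second set of collagens, of types II and IX, which together form the fibrils of cartilage, had a different highest fish. The level of col2a1a was 7.09, 7.17 and 6.34 in control females, 6.40, 8.96, 6.21 and 7.94 in selenium females, 6.72, 6.55, 6.67 and 6.29 in control males, and 6.41, 6.23, 7.95 and 6.84 in selenium males. The highest fish, selenium female 2, was also the highest in col9a1b (6.67, against at most 4.74 elsewhere), col9a2 (7.44) and col9a3 (8.69). That fish was among the low ones for type I and type X collagen, while the next 4 fish in col2a1a, selenium male 3, selenium female 4 and control females 2 and 1, were among the 8 of high col1a2. Over the 15 fish, r with col2a1a was 0.82 for col9a2, 0.76 for col9a1b, 0.57 for col9a3 and 0.69 for col11a1a, and 0.16 for col1a2. The values for the type IX genes include selenium female 2, the highest fish in each of them and in col2a1a. They are not given without that fish, so they do not show that these genes vary together in the others. Matrilin 1, matn1, a cartilage matrix protein outside the rule, was highest in selenium male 3 (6.88) and selenium female 4 (5.98), where col2a1a was also high, and was 4.82 in selenium female 2. Without that female, the diet difference of col2a1a in females went from 0.51 to -0.02 and that of col9a1b from 0.27 to -0.34, neither past the threshold.

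One fish departed in another way. In control male 3 the level of ncana, neurocan, was 6.03, against 8.48 to 9.52 in the other 14 fish, and that of col6a3 was 4.34, against 6.67 to 8.24. The same fish was the lowest of all for 13 of the 50 members, and the mean of the 50 lay 0.38 below its average there, more than in any other fish. Selenium male 2 was the lowest for 9 members. The share over all named genes is not given, so these counts cannot be called particular to matrix genes. In control male 3 the neuronal genes lay 0.04 above and the glial genes 0.04 above their averages.

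The design asks first whether dietary selenium changes brain expression in either sex. No matrix gene passed the threshold, an adjusted p under 0.05 in limma over all 15502 probe sets, in either sex, in the mean of both sexes or in the difference between them; neither did any probe set on the array (0% called in each of these 4 comparisons). At an unadjusted p under 0.05 limma gave 2 members in females (8.27% of all probe sets), 3 in males (5.23%), 3 in the mean of both (5.19%) and 2 in the difference (8.37%).

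In females, 23 members were higher and 27 lower on selenium, with a median difference of -0.04, against 4480 higher and 4313 lower and a median of 0.00 over all named genes. Centring every array on its median turned the split to 27 higher and 23 lower. The member of smallest p was tnr, tenascin R, the cross-linker of the lecticans. Its level was 9.88, 9.90 and 9.97 in control females, and 9.33, 9.24, 9.30 and 9.48 in selenium females. The females did not overlap, and the selenium females lay below all 8 males too: control males had 9.99, 9.86, 9.69 and 9.86, and selenium males 10.07, 9.58, 9.57 and 10.21. The difference in females was -0.58 ± 0.14 (SE), with an adjusted p of 0.377, and in males 0.01 ± 0.13. The difference between the sexes was -0.59 ± 0.19 (adjusted p = 0.530).

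Next in females came lama5, the laminin alpha-5 chain of basement membranes, at 7.91, 7.89 and 7.88 on the control diet and 7.35, 7.67, 7.60 and 7.61 on selenium. These groups did not overlap either, and the difference was -0.34 ± 0.12 (adjusted p = 0.526). For ncana, control females had 9.52, 9.42 and 8.75 and selenium females 8.63, 8.71, 8.73 and 8.63, a difference of -0.56 ± 0.55 (adjusted p = 0.802) that became -0.56 ± 0.18 (adjusted p = 0.506) without control male 3, whose low value enters the shared estimate of spread. In all, 3 of 50 members (6%; tnr, lama5 and ncana) lay below the control range without overlap, against 3.27% of all probe sets, and 1 (mmp17b) above it, against 3.68%. The other 4 members of smallest p were bgnb, biglycan (-0.26 ± 0.12), the lysyl oxidase gene loxl2b (0.24 ± 0.13), mmp11b (-0.15 ± 0.09) and the laminin beta chain gene lamb2l (0.22 ± 0.13), with adjusted p from 0.611 to 0.679.

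A measure of RNA quality, on which a larger value means less intact RNA or shorter copies of it, was mostly higher in selenium females. The excess of the 3' over the 5' control probe set of gapdh was 0.98, 0.97 and 1.61 in control females and 1.84, 1.75, 1.33 and 1.44 in selenium females, and 0.66 to 1.26 in males; its part in the results was not tested beyond a covariate. With this excess as a covariate, the tnr difference in females was -0.68 ± 0.17 (adjusted p = 0.294), and that of lama5 was -0.21 ± 0.14 (adjusted p = 0.676).

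**Figure D3:**
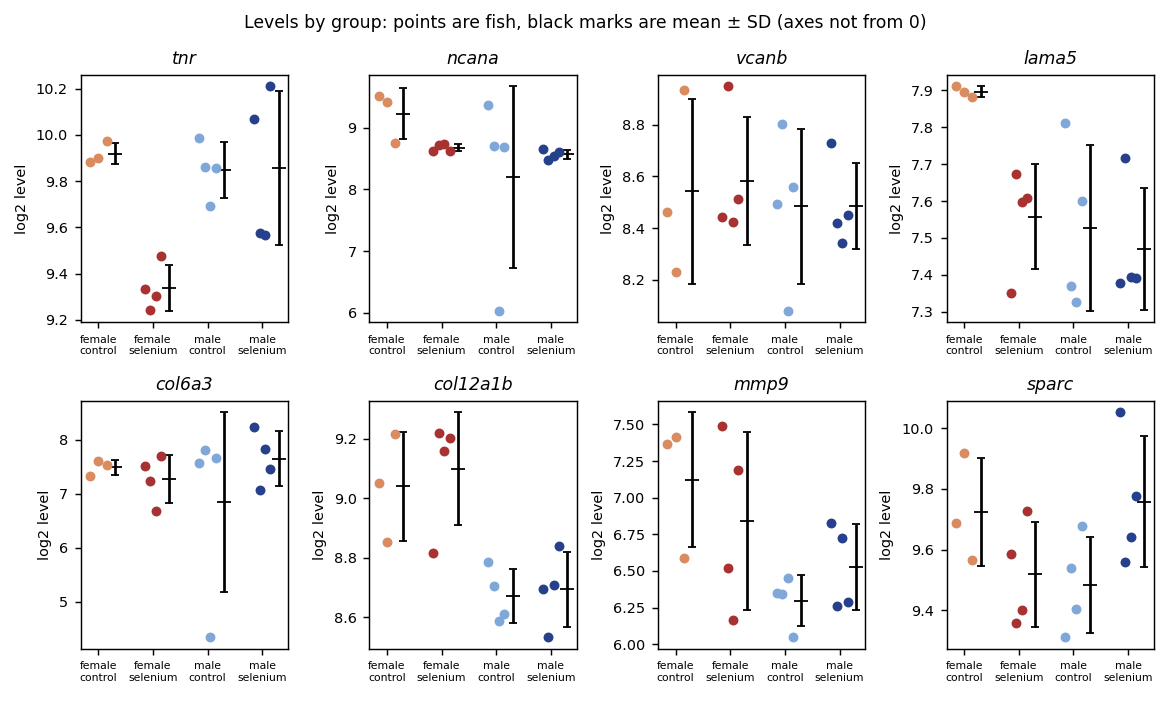
Log2 level of 8 matrix genes in the 4 groups; each point is a fish, and black marks are the group mean ± SD (n = 3, 4, 4 and 4), on axes that do not start at 0. In tnr the 4 selenium females (9.24 to 9.48) lie below all other fish, ncana and col6a3 have 1 low control male each (6.03 and 4.34), and in col12a1b the females lie mostly above the males.

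In males, 33 members were higher and 17 lower on selenium, with a median of 0.04, against 4314 higher and 4479 lower and a median of 0.00 over all named genes. The member of smallest p was col28a2a, a chain of type XXVIII collagen, with 5.996, 5.82, 6.67 and 5.93 on the control diet and 5.72, 5.47, 5.65 and 5.65 on selenium. For col14a1a, a fibril-associated collagen, control males had 7.15, 6.90, 7.39 and 7.09 and selenium males 7.54, 8.07, 7.47 and 7.40. In both genes the groups stood apart, for col14a1a narrowly, and they were the only members to do so: 1 of 50 (2%) lower, against 2.64% of all probe sets, and 1 of 50 higher, against 1.46%. The differences were -0.48 ± 0.16 and 0.49 ± 0.18, both with an adjusted p of 0.937.

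The next members in males were sparc (0.27 ± 0.13), mmp14a, a membrane-bound metalloproteinase (0.31 ± 0.15), col1a2 (0.99 ± 0.70) and col1a1a (0.96 ± 0.68), all with an adjusted p of 0.937. The other, dimmer probe set of mmp14a did not rise on selenium. It had 4.52, 4.56, 4.43 and 4.62 in control males and 4.51, 4.47, 4.34 and 4.59 in selenium males. The level of sparc was 9.31, 9.54, 9.41 and 9.68 in control males and 10.05, 9.56, 9.64 and 9.78 in selenium males, and 9.69, 9.92 and 9.57 in control females and 9.59, 9.36, 9.40 and 9.73 in selenium females; all 4 groups overlapped. The larger values of the type I chains came from selenium males 1 and 3, which were also the fish with the most muscle signal. Without these fish the difference was -0.13 for col1a2 and -0.17 for col1a1a, and with the mean of the muscle list as a covariate -0.08 and -0.14. Leaving them out kept only selenium males 2 and 4, at 8.03 and 7.94 in col1a2, so the loss of the difference was set by the choice of fish. In control females 1 and 2, with col1a2 at 9.44 and 10.51, the muscle list means were 0.46 and 0.81 below average. For the other fish of high col1a2 they deviated by -0.24, 0.09 and -0.04 in selenium females 1, 3 and 4, and by -0.23 in control male 2. The part of muscle signal in the collagen levels was not tested. Without the 4 fish of high retina signal the difference of col1a2 was 2.10 ± 0.54 in males and 1.00 ± 0.57 in females (adjusted p = 0.750 and 0.708). Of the selenium males this kept only 1 and 3, those of high col1a2, so neither drop can decide what the difference in males came from.

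The 5 collagens of types I, V, VI and XII had a median diet difference of -0.05 in females (2 higher, 3 lower) and 0.81 in males (all 5 higher). The value in males was 0.19 without control male 3 and turned to -0.08 with the muscle covariate. It was 0.01 without the 2 fish of highest muscle signal, which were also the selenium males of high col1a2. The 4 brain matrix genes had -0.28 in females (1 higher, 3 lower) and 0.00 in males (3 higher, 1 lower). Besides tnr and ncana these were vcanb, a versican, whose diet difference was 0.04 ± 0.19 in females and 0.00 ± 0.18 in males, and acanb, at -0.01 ± 0.10 and -0.09 ± 0.09. In males the differences of ncana (0.37 ± 0.51) and col6a3 (0.81 ± 0.60) rested on control male 3, and without it they were -0.35 ± 0.18 and -0.03 ± 0.26. No gene of either set was called, and the median of all named genes was 0.00 in both sexes.

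By role, the 11 basement membrane genes had a median diet difference of -0.10 in females (4 higher, 7 lower) and -0.02 in males (5 higher, 6 lower). The 7 metalloproteinases, which cut matrix proteins, had -0.06 (3 higher, 4 lower) and 0.04 (5 higher, 2 lower). The 4 matricellular glycoproteins had -0.21 in females (all lower) and 0.13 in males (3 higher, 1 lower): in females fn1b, a fibronectin, was at -0.37 ± 0.27, fn1a at -0.22 ± 0.22, sparc at -0.21 ± 0.14 and the fibulin gene fbln1 at -0.15 ± 0.15. The other, dimmer probe sets of fn1a and fbln1 did not fall on selenium in females. For fn1a they had 4.96, 5.05 and 4.90 against 5.07, 4.79, 5.05 and 5.27, and 4.18, 4.26 and 4.08 against 4.36, 4.02, 4.33 and 4.23. For fbln1 the other had 4.02, 3.95 and 3.99 against 3.97, 3.89, 4.10 and 4.25. No gene of these roles was called in either sex.

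Averaged over the sexes, 29 members were higher and 21 lower on selenium, with a median of 0.03. The smallest p values were those of tnr (-0.29 ± 0.10, adjusted p = 0.853), col28a2a (-0.30 ± 0.12), lama5 (-0.20 ± 0.08), col17a1b, a collagen of epithelial attachment (0.24 ± 0.13), col14a1a (0.23 ± 0.13) and bgnb (-0.15 ± 0.08), with adjusted p up to 0.967. The level of col17a1b was highest in selenium female 3 (5.46), selenium male 1 (5.21) and control male 2 (5.13), the fish with the highest means of the epithelial list. For the difference between the sexes, 21 members were above and 29 below 0 (females minus males), with a median of -0.16. Over all named genes 4513 were above and 4280 below 0, with a median of 0.01. After tnr, the smallest p values were those of sparc (-0.48 ± 0.18, adjusted p = 0.560), col14a1a (-0.50 ± 0.26), mmp14a (-0.39 ± 0.22), lama5 (-0.28 ± 0.17) and mmp11b (-0.18 ± 0.12).

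**Figure D4:**
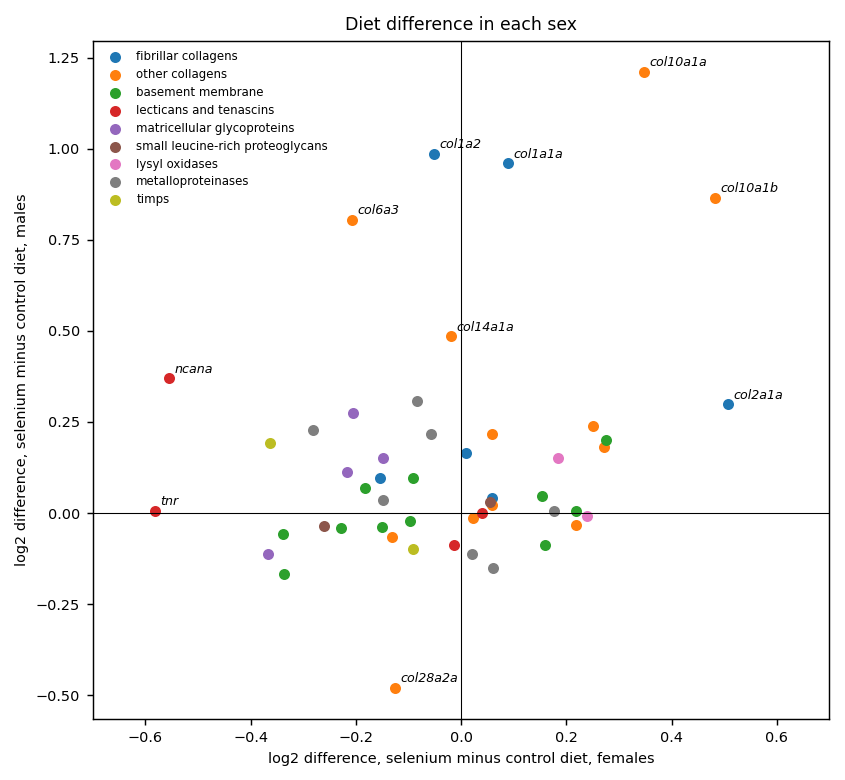
Log2 difference between selenium and control diet in females (horizontal axis) and in males (vertical axis) for the 50 matrix genes, coloured by role. Genes beyond 0.42 in either sex are named: tnr and ncana lie at -0.58 and -0.56 in females, and col10a1a, col1a2, col1a1a, col10a1b and col6a3 lie at 0.81 or higher in males; none passed the test.

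The other comparison of the design is that of the sexes. Averaged over the diets, 40 of the 50 members (80%) were higher in females and 10 lower, with a median of 0.12, against 4908 of 8793 named genes (55.8%) and a median of 0.02. Markers of other tissues also differed in their split. Lower in females were 23 of 24 skeletal muscle genes (median -0.65), 13 of 15 retina and lens genes (-0.42), 13 of 15 epithelial genes (-0.14) and 7 of 9 neuronal genes (-0.07). Higher in females were 9 of 14 fibroblast and meninges genes (0.11), 5 of 10 vessel genes (-0.01), 4 of 9 cartilage and bone genes (-0.03), 3 of 7 glial genes (-0.04) and 3 of 6 erythrocyte genes (0.01). No gene of these lists was called. In control fish the muscle mean was 6.048 in females and 6.211 in males, and the retina mean 5.282 and 4.936. In selenium fish they were 6.585 and 7.605, and 5.214 and 6.413. The matrix split was 39 to 11 with the muscle covariate, and the part of the other lists was not tested. The split was 40 to 10 with renewed quantile normalisation and with arrays centred on their medians too, 36 to 14 with the gapdh excess as a covariate, and 32 to 18 without the 4 fish of high retina signal. No member passed the threshold, against 22 probe sets on the array (0.142%). No member separated the 7 females from the 8 males, against 15 probe sets higher in all females (0.0968%) and 33 lower (0.213%). At such shares, none among 50 is nothing particular to matrix genes. At an unadjusted p under 0.05 limma gave 9 members, against 14.8% of all probe sets, with 8 of them higher in females. By role, the higher ones were all 6 fibrillar collagens, 10 of 12 other collagens, 8 of 11 basement membrane genes, all 4 matricellular glycoproteins and 5 of 7 metalloproteinases.

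The smallest p was that of col12a1b, the fibril-surface collagen XII. Its level ran from 8.82 to 9.22 in the 7 females (median 9.16) and from 8.53 to 8.84 in the 8 males (median 8.70). Only the lowest female, selenium female 1, fell within the range of the males. The difference was 0.39 ± 0.08 with an adjusted p of 0.0763; over the other settings tried it did not pass, and with the gapdh excess as a covariate it was 0.33 ± 0.11 (adjusted p = 0.494).

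For lamb1a, a laminin beta-1 chain, females ran from 8.53 to 9.14 (median 8.67) and males from 8.29 to 8.55 (median 8.43), a difference of 0.32 ± 0.09 (adjusted p = 0.124). For mmp9 females ran from 6.17 to 7.49 (median 7.19) and males from 6.05 to 6.83 (median 6.35), a difference of 0.57 ± 0.20 (adjusted p = 0.195). For lamb1a only selenium female 1 fell within the male range, while for mmp9 control female 3 and selenium females 2 and 3 did.

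The gelatinase gene mmp2 (0.38 ± 0.11, adjusted p = 0.138), the fibronectin gene fn1a (0.46 ± 0.15, adjusted p = 0.175) and lama5 (0.23 ± 0.08, adjusted p = 0.224) followed. The probe sets of a gene did not always give the same difference: the other probe set of mmp2 gave 0.09 and the other 2 of fn1a gave 0.22 and -0.05. Of the remaining members with an unadjusted p under 0.05, col18a1a (0.23 ± 0.09) and lamc3 (0.21 ± 0.09), both of basement membranes, were higher in females, and tnr was lower (-0.22 ± 0.10). The type I chains had 0.74 ± 0.52 for col1a2 and 0.79 ± 0.50 for col1a1a, and the type X chain col10a1a 1.27 ± 0.71.

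On the control diet alone, 6 members (12%; col11a1a, col12a1b, lama5, lamb1a, loxa and mmp9) were higher in all 3 females than in all 4 males, against 3.4% of all probe sets, and none was lower in all, against 4.26%. On the selenium diet 1 member (2%; col18a1a) was higher in all females, against 5.08%, and 2 (4%; col14a1a and tnr) were lower in all, against 5.07%. These comparisons within a diet use part of the same fish as the averaged one.

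**Figure D5:**
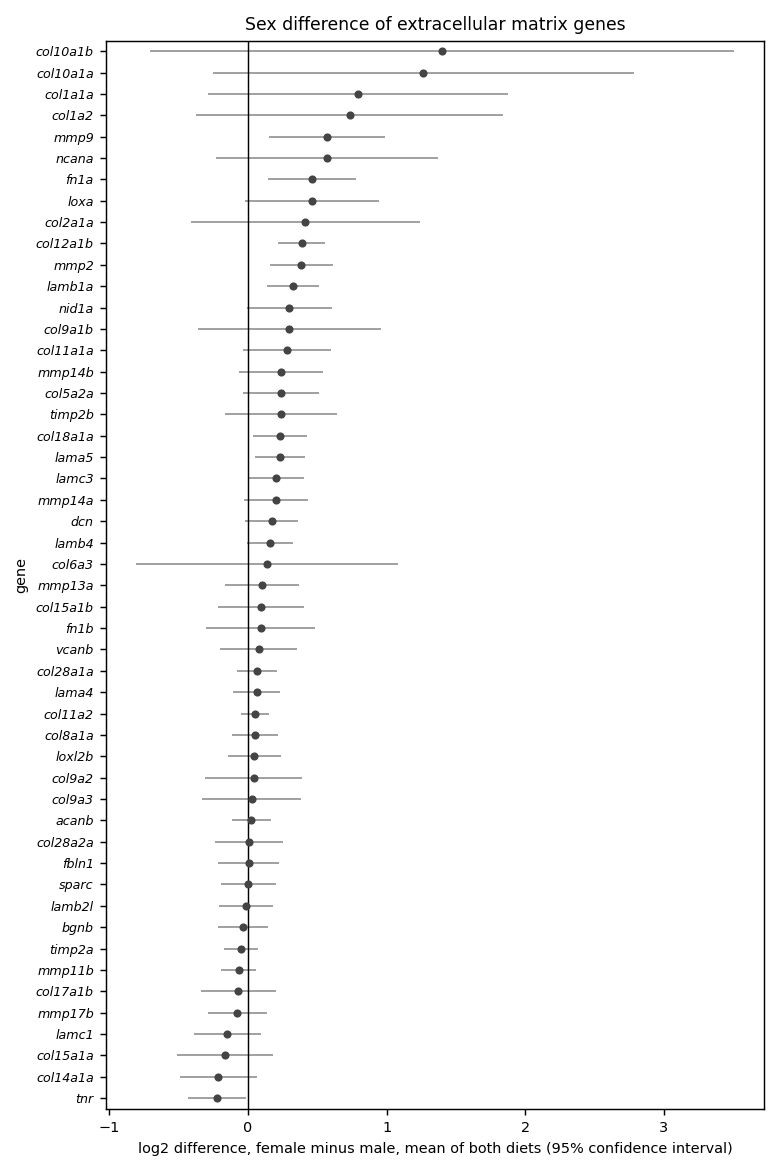
Log2 difference between females and males, averaged over the diets, for the 50 matrix genes, with 95% confidence intervals from limma. Of the points, 40 lie above 0, and the intervals are widest for col10a1b, col10a1a, col1a1a and col1a2. Before adjustment those of col12a1b, lamb1a, mmp2, fn1a, mmp9, lama5, col18a1a and lamc3 lie above 0 and that of tnr lies below 0.

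Decorin, dcn, a small proteoglycan that binds collagen fibrils, was among the steady members. Its level was 9.87, 9.97 and 10.19 in control females, 10.29, 10.07, 10.21 and 9.68 in selenium females, 10.01, 9.84, 9.80 and 9.74 in control males, and 9.96, 9.93, 9.86 and 9.75 in selenium males. All groups overlapped, with diet differences of 0.06 ± 0.13 in females and 0.03 ± 0.12 in males. The Timp genes, inhibitors of metalloproteinases, differed in spread: timp2a lay between 9.37 and 9.71 in all fish, and timp2b between 6.29, in control male 3, and 8.02, in control female 3. Of the lysyl oxidases, loxa was highest in selenium females 1 and 4 (6.83 and 6.94) and lowest in selenium female 2 (5.09), so that this group held both extremes.

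Genes that act with the matrix were read from 5 further lists, and none of their genes was called in any comparison. For collagen making and secretion, 13 of 30 listed genes were measured, with medians of 0.01 in females (7 higher, 6 lower on selenium) and 0.06 in males (12 higher, 1 lower). For hyaluronan and link proteins, the partners of the lecticans, the medians over 8 genes were 0.03 and 0.03. For 9 integrins and matrix receptors they were -0.02 and -0.03, for 18 other matrix proteins -0.03 and 0.03, and for 8 TGF-beta signals -0.09 and 0.05. In the sex comparison the medians of these lists lay between -0.05 and 0.04. Higher in females were 8 of 13 genes of collagen making (61.5%), near the 55.8% of all named genes. The other lists had 2 of 8 hyaluronan and link genes, 5 of 9 integrins and receptors, 8 of 18 other matrix proteins and 3 of 8 TGF-beta signals higher. The 18 genes measured, of 54 listed as other matrix proteins, thus did not share the split of the 50 members.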

How the data were processed

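Whole-brain total RNA was hybridised to Affymetrix arrays, 1 fish each. The deposited values are log2 levels per probe set, which the authors made with RMA and affy, per the submitters' processing notes; no source used here gives their versions or which arrays were normalised together. Of 15617 probe sets, 115 controls were left out and no filter on level was used. Platform annotation, with symbols updated from a gene table of the GRCz12tu assembly, gave 1 symbol to 10795 of 15502 probe sets, several to 135 and none to 4572. No coordinates or sequences are given.

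Groups came from the labels. Limma 3.58.1 (R 4.3.3) fitted the 4 group means to all 15 arrays, with moderated variances (median residual SD 0.169), 5 contrasts and Benjamini-Hochberg adjustment over all probe sets; tests were two-sided and were tested on simulated data. The p values measure the spread between fish. Named with statistics were members past the threshold or, failing those, the 6 of smallest p per comparison. Other members, among them some but not all of the brightest and most variable of each role, were named with statistics or with levels only. Alternatives covered scaling, dim probe sets, choice of probe set, prior, array weights, 2 covariates, the fit within 1 sex and each fish left out. Leaving out the fish of high muscle or retina signal, and r within sets of fish, were chosen after seeing the data. The members, lists and tests were chosen with earlier results of these data known.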

Additional observations from a re-analysis of the deposited data

Results flagged for a closer look

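In each group of 4 fish, the highest or lowest fish was compared with the gap to its neighbour over the range of the group (Dixon's 95% limit). Of 150 such tests over 50 members and the 3 groups of 4 fish, 14 stood out; chance flags about 1 in 20 groups.

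Control male 2 was far above the other control males in col1a2 (9.108, others at most 7.842), col10a1b (9.863, others at most 5.035) and col17a1b (5.131), and below them in timp2a (9.638). Selenium female 2 was far above the other selenium females in col9a1b (6.667), col9a3 (8.693) and vcanb (8.95). Control male 3 was far below the other control males in col6a3 (4.344, others at least 7.563). Selenium female 3 stood high in lama4 (7.959) and col5a2a (7.247), and selenium female 1 low in col12a1b (8.816). Single fish also stood high in lama5 (selenium male 2, 7.717), loxl2b (control male 1, 5.26) and bgnb (control male 4, 6.583).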

How the results depend on the processing

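No matrix gene was called in any comparison run under the 27 other settings (15 of which leave out 1 fish; the fit of only the groups compared was run for the diet in each sex alone); the smallest adjusted p was 0.0512, for the sexes without selenium female 1. Besides the values below, 1386 recomputed values kept their direction and side of the threshold or moved by less than the spread. This count includes medians that changed sign, so it does not show that their direction held. Over the settings, the median diet difference of the members ran from -0.11 to 0.03 in females and from -0.01 to 0.10 in males. That of the type I, V, VI and XII collagens, averaged over the sexes, ran from -0.17 to 0.53. In the comparison of the sexes the median of the members stayed positive (0.07 to 0.20). Without probe sets below the 25th percentile of level, which drops acanb, the brain matrix median was -0.56 in females and -0.59 for the difference between the sexes. For the type I, V, VI and XII collagens the diet median in males was -0.0766 with the muscle covariate, 0.01 without the 2 fish of highest muscle signal and 0.19 to 1.13 with single fish left out; the difference between the sexes was -0.20 and 0.0455 under the first pair. There col1a2 in males was -0.0766 and -0.13, and col1a1a -0.14 and -0.17. The correlation of col1a2 with col1a1a was 0.783, no longer past the threshold, within the 7 fish of lower col1a2 (0.987 to 0.992 with single fish left out); that with sparc lost its call at 0.565 without the 2 farthest fish, 0.384 within the 7 fish, 0.585 without control female 2 and 0.574 without selenium male 1 (0.574 to 0.747). That with dcn was -0.210 for deviations from group means, -0.269 within the 8 fish and -0.136 to 0.220 with single fish left out (-0.136, -0.044, -0.059 and -0.047 without selenium female 1, control males 3 and 4 and selenium male 4). That with ncana was -0.005 within the 8 fish; that with tnr was 0.081 for deviations, 0.250 and 0.199 within the sets, and 0.014 without selenium male 4 (-0.257 to 0.014). The cause was not tested. No paired analysis was possible because each fish carries a number of its own and replicate numbers follow accession order.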
